A study of Mus musculus with 18 samples.

Results

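The wild-type cortex was described here across its whole transcriptome, from 6 wild-type mice at embryonic day 18.5, of 12 cortex samples with gene counts and 18 samples in the series. The members were the 6 libraries labelled as wild-type cortex, 3 from litters of the Nova2 line (wt1, wt2 and wt3) and 3 from litters of the Nova1 line (wt4, wt5 and wt6). All were of the CD1 background, carried no Nova deletion and received no treatment. In the study they served as littermate controls for Nova2-/- and Nova1-/- cortex, 3 mice each, and mid- and hindbrain samples were not used here. The Nova lines were made in another strain and then backcrossed to CD-1, so the litters of each line may carry different stretches of genome, and litter set, library preparation and sequencing run cannot be told apart. The labels name no litter, so the litter sets were inferred from the sample numbers. Nothing in the labels says whether the mice of a litter set shared a litter.

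Shortly before birth the cortex is full of young neurons that are still growing axons and dendrites, while radial glia, the neural stem cells of the cortical wall, turn towards making glia. Neurite growth rests on microtubules, built from tubulins and held by microtubule-associated proteins, and on actin. It also needs protein synthesis, which draws on ribosomal proteins and translation factors. The tissue block further holds interneurons, blood vessels, microglia and a covering of meninges, whose fibroblasts make collagens.

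The 6 libraries held 16518172 to 31362018 counts each over 23038 gene symbols, and 17156 genes had at least 1 count in every mouse. Spearman correlations between mice across genes were 0.971 to 0.992 within a litter set and 0.971 to 0.986 between sets, over genes that share each library. The shallowest library, wt2, stood apart with 21791 genes detected, against 18397 to 19396 in the other mice, and with 336 CPM (counts scaled to a common library size) on 1427 olfactory and vomeronasal receptor symbols, against 21.2 to 35.3 CPM elsewhere. Counts that were not whole numbers made up 7.48% to 11.7% of values in the Nova2-litter mice and 18.6% to 20.02% in the Nova1-litter mice, so the deposited counts differed in kind between the sets. The biological coefficient of variation was 17.9% among Nova2-litter mice and 7.21% among Nova1-litter mice. On the first principal component, with 39.5% of the variance, wt1 and wt2 lay on one side, wt4 to wt6 on the other, and wt3 between them. On the second, with 28.35% of the variance, wt3 stood apart at -45.3, where the other mice lay at 4.76 to 12.6. Xist, the RNA that coats the inactive X chromosome, was at 1552 CPM in wt1 and 2057 to 2182 CPM in wt4 to wt6, but at 4.17 CPM in wt2 and 11.5 CPM in wt3. The Y-linked helicase gene Ddx3y was at 137 CPM in wt2 and 154 CPM in wt3 and at most 0.381 CPM in the other mice. The X- and Y-linked levels were thus those of 2 males among the Nova2-litter mice and of females in the other 4 mice, so sex was not balanced between the sets.

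A small number of genes held much of the RNA. The 10 most abundant genes took 3.97% ± 0.187 (SD, n = 6) of all counts, the 100 most abundant took 14.3% ± 0.269, and 1252 genes took 50% of the counts. There were 55 genes at 1000 CPM or more, 2595 at 100 CPM or more and 14430 at 1 CPM or more. Protein-coding genes held 96.2% ± 0.260 of the counts and long intergenic RNAs 0.683% ± 0.119.

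Tuba1a, the alpha-tubulin of young neurons, and Eef1a1, which brings aminoacyl-tRNA to the ribosome, led the list, on the scale of CPM after TMM scaling that is used from here on. Tuba1a was at 6627, 6423 and 6563 CPM in wt1 to wt3 and at 6175, 6042 and 5761 CPM in wt4 to wt6. For Eef1a1 the values were 6942, 6733 and 6003 CPM against 6884, 6256 and 5781 CPM. The 2 litter sets overlapped for Eef1a1, while for Tuba1a they stood apart by a small step, with a log2 fold change of 0.13 ± 0.07 (SE) that did not pass the test (edgeR quasi-likelihood test, Benjamini-Hochberg adjusted p = 0.349). Log2 fold changes are given throughout as Nova2 litters minus Nova1 litters.

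Cytoskeletal genes filled 4 of the next 8 places by CPM. Actb (cytoplasmic beta-actin) ranged from 3183 to 3689 CPM. Spna2, the alpha-II spectrin of the membrane skeleton, ranged from 3148 to 3565 CPM. Mtap1b, a microtubule-associated protein of growing axons, ranged from 2714 to 3480 CPM, with wt3 the highest mouse. Macf1, which links microtubules to actin, ranged from 2385 to 2821 CPM, and Ttc3, an E3 ubiquitin ligase, from 2780 to 3449 CPM. The first 10 genes also held Malat1, a nuclear RNA, Rmrp, the RNA of RNase MRP, and Rpph1, the RNA of RNase P.

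Levels can be compared between genes only per length, here as CPM per kilobase of annotated exon. On that scale Tuba1a stood at 3804 ± 203 (SD, n = 6) CPM per kb and Eef1a1 at 2581 ± 196 CPM per kb. Among the genes behind them were Rpl32 (1293 CPM per kb), Tubb2b (1280 CPM per kb), Actb (1278 CPM per kb), the actin-sequestering thymosin Tmsb4x (1165 CPM per kb) and Rplp1 (1159 CPM per kb). Tubb3, the beta-tubulin of neurons, was at 941 CPM per kb, calmodulin Calm2 at 812 and the actin-severing cofilin Cfl1 at 775 CPM per kb. C230091D08Rik came next after Eef1a1 at 2285 CPM per kb, but its annotated exon was 54 bases long and a level over so short a model is uncertain. The small nucleolar RNAs Snord17 (1026 CPM per kb) and Snord88a (890 CPM per kb), which are also short, and 2900097C17Rik (1081 CPM per kb) were also among the first 15. Rmrp and Rpph1 had no length in the annotation and could not be placed. Wherever near-identical copies of a gene exist, as for ribosomal proteins and tubulins, the split of reads between copies is uncertain.

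**Figure D1:**
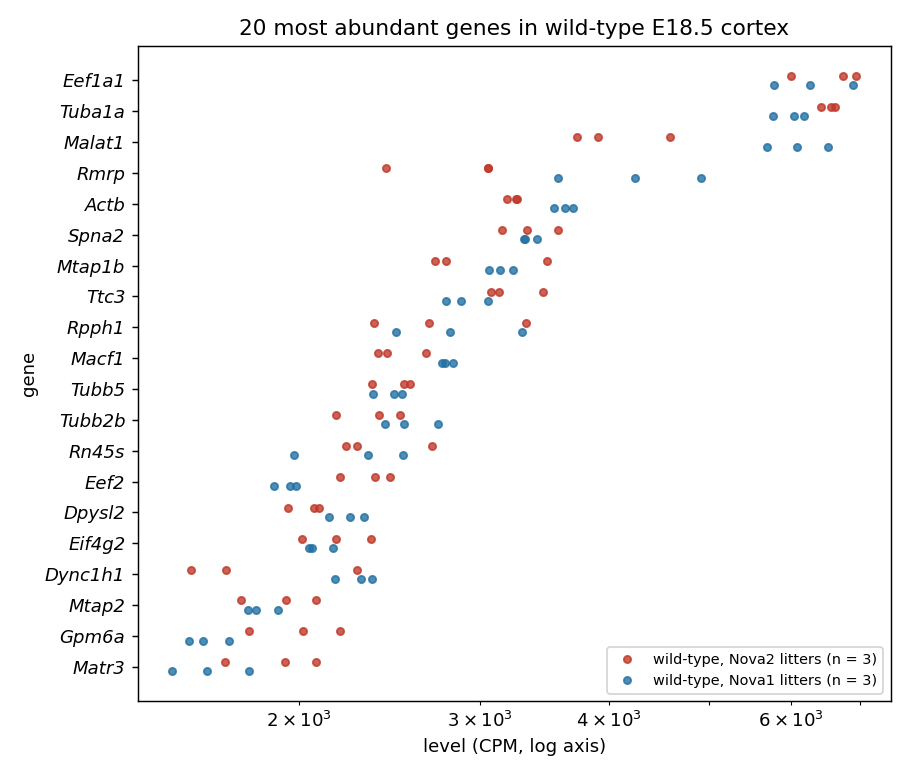
Levels of the 20 genes with the highest mean CPM in the 6 wild-type cortices, 1 point per mouse, on a log axis in CPM. Tuba1a and Eef1a1 have the highest means, while Malat1 lies at 3721 to 4585 CPM in the Nova2-litter mice (red) and at 5685 to 6518 CPM in the Nova1-litter mice (blue), in wt6 above both.

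Grouped by family, ribosomal proteins and tubulins held the largest shares, followed by the large families of Zfp genes and solute carriers. The 15 families with the largest shares, 1301 genes together, took 14.1% ± 0.276 (SD, n = 6) of all counts. Cytoplasmic ribosomal proteins led with 1.83% ± 0.139, over 87 genes. Rplp0 at 934 ± 50.1 CPM and Rps4x at 926 ± 89.4 CPM were their most abundant members. Translation initiation factors took 0.992% ± 0.0407, led by Eif4g2 (2134 CPM) and the helicase gene Eif4a2 (743 CPM), and elongation factors took 0.98% ± 0.0767, most of it from Eef1a1 and Eef2.

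Tubulins, with 20 genes, took 1.40% ± 0.0413 of the counts, and Tuba1a and Tubb5 were the most abundant of them. Microtubule-associated proteins took 0.989% ± 0.0516, led by Mtap1b and Mtap2, and kinesins, the motors that carry cargo along microtubules, took 0.714%, led by Kif5c (1363 CPM) and Kif1b (1322 CPM). Collapsin response mediators, which bind tubulin and relay semaphorin signals, were only 5 genes but took 0.50%, and Dpysl2 alone stood at 2136 ± 128 CPM. Spectrins and ankyrins took 0.723%. The respiratory chain subunits encoded in the nucleus took 1.01% ± 0.0508, led by the ATP synthase subunits Atp5b (1203 CPM) and Atp5a1 (923 CPM). Heat-shock proteins and DnaJ chaperones took 0.788%, led by Hsp90ab1 (1652 CPM).

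Some shares came from many genes at low levels. The 367 Zfp genes, which encode zinc-finger proteins, took 1.32% ± 0.0591, and none of them exceeded Zfp207 at 371 CPM. The 357 solute carriers took 1.11% ± 0.0285, led by the sodium-calcium exchanger Slc8a1 (790 CPM). Per kilobase the order changed, since a long RNA gives more counts: ribosomal proteins then held 5.53%, the respiratory chain 2.66%, tubulins 2.63% and Zfp genes 1.16%, while microtubule-associated proteins fell from rank 7 to rank 20 of the 44 families. At the other end, none of the 40 Hox genes, which mark hindbrain and spinal cord, passed the filter on low counts. No mitochondrially encoded symbol was in the table.

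**Figure D2:**
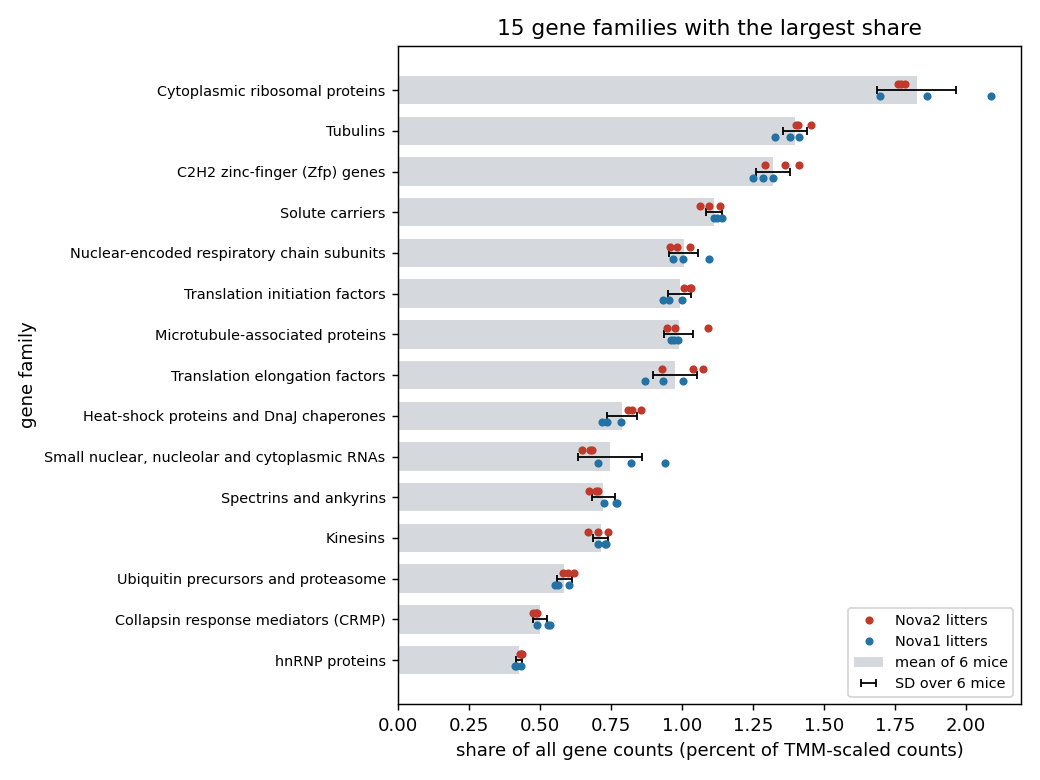
Share of all counts held by each of the 15 largest gene families, in percent of TMM-scaled counts, as the mean of 6 mice (bar) with the SD (black line) and each mouse (points). Ribosomal proteins hold 1.83% on average, with wt4 the highest at 2.09%, and the litter sets overlap for ribosomal proteins, tubulins and solute carriers.

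RNAs of ribosomal proteins are known to begin with a run of pyrimidines, to which their translation is tied. The letters CTTTC, searched on the sense strand only from 10 bases before to 20 bases after the annotated start, were present in 15 of the 64 ribosomal protein genes with a promoter in RefSeq (build GRCm38.p6), or 23.4%, against 3.66% of all 27025 promoters in the same window. Among the 100 most abundant genes with a promoter the share was 2%. The windows of the 4 most abundant of those 15 genes are printed because this family held the largest share of counts, with the first match in capitals.
Rpl13a: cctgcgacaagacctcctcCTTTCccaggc
Rplp2: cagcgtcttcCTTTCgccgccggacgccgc
Rps26: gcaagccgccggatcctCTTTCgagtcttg
Rpl7a: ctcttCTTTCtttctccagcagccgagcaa
They lie at chr7:45128726-45128755 on the minus strand (Rpl13a), chr7:141447641-141447670 on the plus strand (Rplp2), chr10:128626487-128626516 on the minus strand (Rps26) and chr2:26910797-26910826 on the plus strand (Rpl7a). A match is a description of letters near an annotated start, which may not be the start used in cortex.

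Marker genes placed the tissue as cortex with a full set of neural cell types. In bulk RNA, fewer cells of a type and less RNA per cell cannot be told apart. The projection neuron markers of the upper layers summed to 2509 to 2719 CPM, led by Mef2c (918 ± 46.3 CPM) and Plxna4 (397 CPM). Those of the deep layers summed to 1006 to 1090 CPM, led by Tle4 (207 CPM), Bcl11b (170 CPM) and Sox5 (141 CPM). Interneuron markers, led by the ErbB4 receptor gene Erbb4 (170 CPM) and by Gad1 (164 CPM), which makes GABA, summed to 931 to 1027 CPM. Radial glia markers summed to 2810 to 3588 CPM, led by Ptprz1 (1013 CPM), Fabp7 (781 CPM) and Tnc (440 CPM).

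The most abundant genes of the pan-neuronal list were Mtap2 at 1884 ± 120 CPM, Tubb3 at 1757 ± 160 CPM and Dcx, which binds microtubules in migrating neurons, at 1513 ± 135 CPM. Synapse genes were already present, with the AMPA receptor subunit gene Gria2 at 1242 ± 86.4 CPM, and Syt4 (563 CPM) above Syt1 (216 CPM) in counts among presynaptic genes. The striatal list summed to 778 to 866 CPM, led by Foxp1 (273 CPM) and Meis2 (273 CPM), genes that cortex also expresses. Mid- and hindbrain markers summed to only 4.77 to 8.98 CPM, and Th, for dopamine synthesis, was at 1.29 to 6.01 CPM. Haemoglobin RNA was low, with Hba-a2 at 83.5 to 224 CPM. Mature oligodendrocyte RNA was also low, with the myelin gene Mbp at 20.4 ± 1.68 CPM and the precursor receptor gene Pdgfra at 86.2 to 148 CPM. The choroid plexus gene Ttr, for transthyretin, ran from 226 CPM in wt4 to 1149 CPM in wt2, and the whole list of 11 genes from 371 to 1270 CPM, without a split by litter.

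To separate stable from litter-dependent expression, the 3 Nova2-litter mice were compared with the 3 Nova1-litter mice over 15918 genes that passed the filter on low counts. A gene was called stable when its difference was shown to lie within 1.5-fold either way, and litter-dependent when its adjusted p was below 0.05 and its log2 fold change at least 1 in size. By that rule 10136 genes (63.7% of those tested) were stable and held 90.9% of all counts. There were 103 litter-dependent genes (0.647%) and they held 0.191% of the counts. Of those, 27 (0.17%) were higher in Nova2 litters and 76 (0.477%) in Nova1 litters. With any fold change, 483 genes (3.03%) passed the adjusted p, and 5398 genes could be called neither stable nor different. The median absolute log2 fold change over all tested genes was 0.16.

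How many genes could be called stable followed the level of the gene. None of the 1496 genes at 0.1 to 1 CPM was called stable, against 1194 of 4147 at 1 to 10 CPM, 6498 of 7680 at 10 to 100 CPM and 2393 of 2540 at 100 to 1000 CPM. Among the 100 most abundant genes, 93 were stable. Of the 103 litter-dependent genes, 36 had a mean of 10 CPM or more. None of the 55 genes at 1000 CPM or more was litter-dependent.

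Of the 10 stable genes with the highest levels, 7 encode proteins of the cytoskeleton. Tuba1a, Eef1a1, Actb, Spna2, Mtap1b, Ttc3, Rpph1, Macf1, Tubb5 and Tubb2b all met the bound. Tubb5 lay at 2562, 2530 and 2354 CPM against 2520, 2475 and 2363 CPM, and the sets overlapped. The steadiest gene at 10 CPM or more was Cntnap4, a synaptic adhesion gene of interneurons, which stayed between 91.0 and 92.6 CPM in all 6 mice. It was followed by Zcchc11 (a terminal uridylyltransferase, 198 to 204 CPM), Brcc3 (46.3 to 47.7 CPM), Bach1 (93.5 to 96.1 CPM) and Pfkm (muscle-type phosphofructokinase, 146 to 152 CPM).

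Most lists of projection neuron, striatal, radial glia and postsynaptic genes were stable in most members. Of the upper-layer markers 13 of 14 were stable, of the deep-layer markers 12 of 14, of the striatal markers 14 of 16, of the radial glia markers 12 of 15 and of the postsynaptic genes 15 of 19, against 63.7% of all genes. The share of stable genes was 84.6% at 10 to 100 CPM and 94.2% at 100 to 1000 CPM. The lists were not matched for level, so they cannot be called more stable than other genes. Their median log2 fold changes ran from -0.14 to 0.10, where that of all genes was 0.00. None of these lists held a litter-dependent gene. Other neuronal lists had fewer stable genes, with 13 of 20 presynaptic genes, 4 of 10 thalamic genes and 1 of 9 Cajal-Retzius genes, none of them litter-dependent. Among the families, all 5 collapsin response mediators, 49 of 56 initiation factors and 67 of 81 respiratory chain subunits were stable, as were 58 of 84 ribosomal protein genes.

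Smaller shifts passed the adjusted p without reaching a log2 fold change of 1. Malat1 was at 3721, 3901 and 4585 CPM in the Nova2-litter mice and at 6076, 5685 and 6518 CPM in the Nova1-litter mice, a log2 fold change of -0.58 ± 0.10 (edgeR quasi-likelihood test, Benjamini-Hochberg adjusted p = 0.0255), with no overlap. Apoe, which carries lipids and is made by astrocytes and microglia, was at 148, 164 and 190 CPM against 305, 250 and 282 CPM. The splicing factors Hnrnpk and Hnrnpu moved in opposite directions, with log2 fold changes of 0.33 ± 0.07 and -0.28 ± 0.06, and both remained inside the 1.5-fold bound. Cell cycle genes had a median of 0.15, and their summed level was 840 to 870 CPM in Nova2 litters and 632 to 759 CPM in Nova1 litters, but none of the 21 genes passed the adjusted p. For the topoisomerase gene Top2a the values were 229, 223 and 204 CPM against 184, 168 and 145 CPM.

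**Figure D3:**
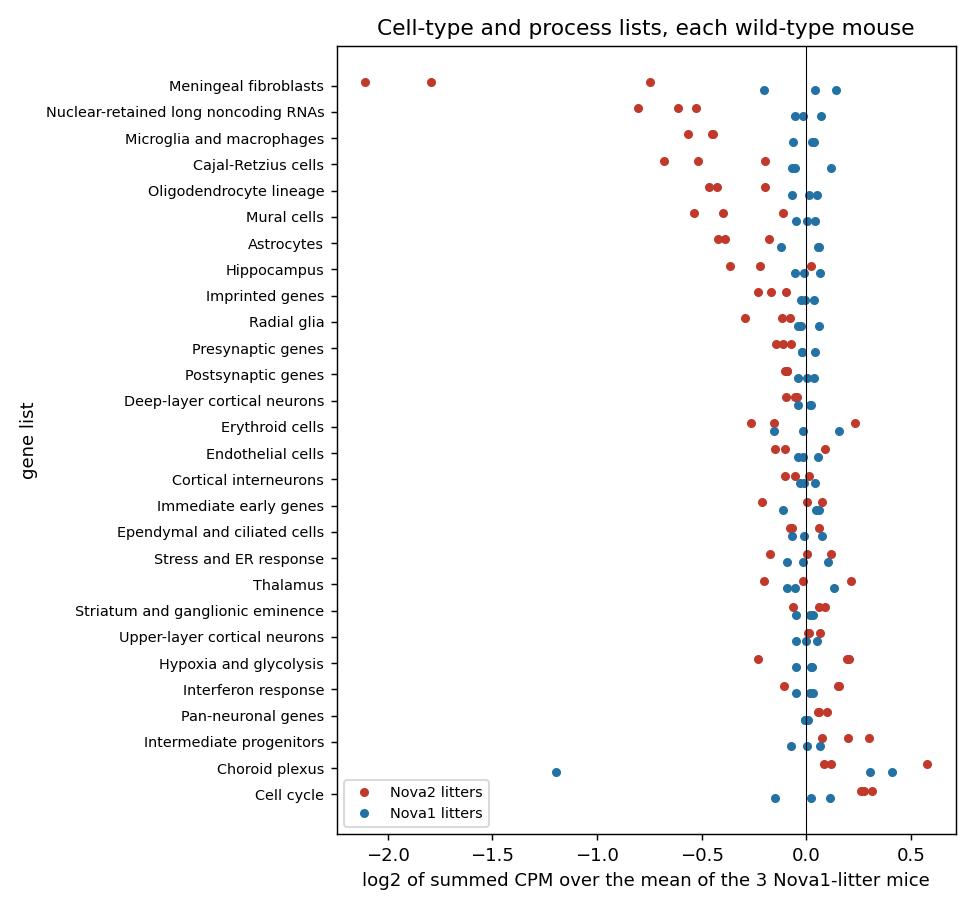
Summed CPM of each gene list in each wild-type mouse, as the log2 ratio to the mean of the 3 Nova1-litter mice, for lists with at least 8 tested genes. The upper-layer and deep-layer lists lie near 0 in both sets, the Cajal-Retzius list lies below 0 in the Nova2-litter mice, the meningeal fibroblast list lies farthest to the left in those mice, and the choroid plexus list is spread by 1 mouse, wt4.

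Genes of the meninges and of the extracellular matrix made up the clearest group among those higher in Nova1 litters. Of 19 meningeal fibroblast genes tested, 4 were litter-dependent, against 0.647% of all tested genes, and all 4 were higher in Nova1 litters. None of the 19 was stable, and the median log2 fold change was -0.98 against 0.00 for all genes. The list summed to 314, 390 and 806 CPM in wt1 to wt3 and to 1394, 1177 and 1492 CPM in wt4 to wt6. Without wt1 the median was -0.73 and without wt3 it was -1.52. Collagens behaved alike, with 6 of 44 tested genes litter-dependent, again against 0.647%, and a median of -0.44. The collagen genes Col3a1 and Col1a2 belong to both groups.

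Col3a1, a fibrillar collagen, was at 80.1, 107 and 220 CPM in the Nova2-litter mice and at 380, 324 and 425 CPM in the Nova1-litter mice. Its log2 fold change was -1.47 ± 0.31 (edgeR quasi-likelihood test, Benjamini-Hochberg adjusted p = 0.0444). Ptgds, which makes prostaglandin D2 in the meninges, was at 59.3, 58.3 and 168 CPM against 403, 303 and 399 CPM, a log2 fold change of -1.94 ± 0.36. Cldn11, a tight junction gene of arachnoid cells and myelin, was at 6.48, 6.85 and 10.5 CPM against 26.7, 24.0 and 24.98 CPM. In each of these genes the sets did not overlap, and wt3 lay nearest to the Nova1-litter mice.

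Other genes of the group were Dcn (decorin), Col1a2, Vtn (vitronectin, from pericytes), Lamb2 and Bmp5, a ligand made by the meninges. Their log2 fold changes ran from -1.52 to -1.05. Summed markers of some other non-neuronal cells were also lower in every Nova2-litter mouse. The trait was not limited to them. Sums of deep-layer, radial glia, presynaptic and postsynaptic genes were lower in every such mouse too, with log2 ratios of -0.16 to -0.07. Those of pan-neuronal, intermediate progenitor and cell cycle genes were higher in every one, at 0.07 to 0.28. Of 13 oligodendrocyte-lineage genes 2 were litter-dependent, Cldn11 among them, and 5 were stable, against 0.647% and 63.7% of all tested genes. The list summed to 216 to 260 CPM against 284 to 309 CPM, but its median was -0.02, with 7 genes below 0 and 6 above. Of 11 mural cell genes 1 (Vtn) was litter-dependent, with a median of -0.32 and sums of 151 to 203 CPM against 212 to 226 CPM. Microglia and macrophage genes had a median of -0.47 with none litter-dependent, and their sums were 169 to 184 CPM against 240 to 257 CPM. Mrc1, the mannose receptor of macrophages at the brain border, was at 17.4, 20.7 and 45.0 CPM against 56.3, 57.2 and 57.6 CPM, which did not pass the test (adjusted p = 0.0925, edgeR quasi-likelihood test with Benjamini-Hochberg adjustment). Astrocyte genes had a median of -0.43, with all 12 below 0 and sums of 974 to 1150 CPM against 1200 to 1358 CPM. None was litter-dependent, but 4 passed the adjusted p with any fold change, against 3.03% of all tested genes. Only 4 were stable. Cajal-Retzius cells lie at the cortical surface, and the sum of their markers was 777 to 1086 CPM against 1187 to 1351 CPM, with Reln, the secreted guide of layering, at 651, 754 and 930 CPM against 1191, 1031 and 1061 CPM. Endothelial genes had a median of 0.01. How much meninges each dissected block kept was not tested.

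The genes with the largest differences were of another kind, and mostly of low level. The 3 litter-dependent genes that passed both thresholds whichever mouse was left out were Nub1, Jmjd7 and G530011O06Rik. Nub1, whose protein sends NEDD8 conjugates to the proteasome, was at 169, 158 and 172 CPM against 58.3, 59.9 and 62.1 CPM, a log2 fold change of 1.47 ± 0.07 (edgeR quasi-likelihood test, Benjamini-Hochberg adjusted p = 3.52e-05). G530011O06Rik, a RIKEN transcript on the X chromosome, was at 5.85, 6.61 and 5.37 CPM against 49.5, 61.6 and 53.2 CPM. Jmjd7, a lysyl hydroxylase gene, was at 8.93, 8.51 and 9.64 CPM against 1.45, 1.38 and 1.40 CPM, and its values did not overlap either.

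Several of these genes are neighbours. Within 1 megabase of each other on chromosome 13 (NCBIM37, 4227946 to 4608420) lay the aldo-keto reductase genes Akr1c19 and Akr1e1 and the pseudogene Marcksl1-ps4, all higher in Nova2 litters, with log2 fold changes of 3.34, 1.42 and 3.53. Akr1c19 was at 5.30, 6.61 and 2.17 CPM against 0.495, 0.417 and 0.444 CPM. On chromosome 17 (6439626 to 7291909) the pseudogenes Tmem181b-ps and Tmem181c-ps, with Rnaset2b and Gm1604b, were all higher in Nova1 litters. Tmem181c-ps was at 7.92, 5.36 and 2.07 CPM against 64.2, 66.7 and 70.6 CPM. The thymosin genes Tmsb15l and Tmsb15b1 on the X chromosome, near-identical copies, were both higher in Nova2 litters. Chromosome 17 held 12 litter-dependent genes of 721 tested, and chromosome 4 held 1 of 932, where 0.647% of all tested genes were litter-dependent. Chromosome 11 held 11 of 1230, chromosome 1 held 10 of 902, and chromosomes 8, 12 and 16 also held 1 each.

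Among the others higher in Nova2 litters, 9030025P20Rik was at 4.21, 2.26 and 2.07 CPM against at most 0.0354 CPM. Pla2g4b, a phospholipase gene, was at 10.8, 12.4 and 8.58 CPM against 2.16, 1.79 and 2.54 CPM. It is the neighbour of Jmjd7 and the pair are known to share a read-through transcript, so their counts may not be separate. Akr1b3 (aldose reductase), Gm13152, Tmsb15b1, Abca17 and Cpb2 completed the 10 largest on this side, all under 7 CPM in every mouse. On the other side, the largest changes in genes under 4 CPM were those of Prss56, Cd209f, 4930470H14Rik, Ccl12 and Ngp, of which Cd209f and Ccl12 are macrophage genes and Ngp a neutrophil gene. Cdhr1, which mitral cells of the olfactory bulb and photoreceptors express, was at 3.39, 2.32 and 5.27 CPM against 39.8, 9.46 and 22.6 CPM, and so varied widely within the Nova1-litter mice too. Mybpc1 (0.546 to 1.17 against 4.33 to 10.6 CPM) and Zpld1 (0.467 to 0.476 against 2.38 to 5.31 CPM) were also among the 10 largest.

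Some genes of moderate level were litter-dependent as well. Cwc22, a spliceosome gene, was at 169 and 178 CPM in wt1 and wt2 but at 61.0 CPM in wt3, close to the 47.1 to 49.8 CPM of the Nova1-litter mice. Mzt1, a partner of the gamma-tubulin complex, was at 108, 102 and 84.3 CPM against 41.4, 43.3 and 41.0 CPM. At a lower level, the immediate early gene Egr1 was at 2.81, 1.91 and 2.80 CPM against 6.19, 5.33 and 5.08 CPM. It was the only litter-dependent gene of the 14 immediate early genes tested, against 0.647% of all tested genes. With each mouse left out in turn, Egr1 passed both thresholds in only 1 fit. Groups of 3 did not overlap in 102 of the 103 genes, against 27.3% of all tested genes. The 103 were picked on these same values, so that share is not a like background and the count is no further evidence. The exception was Ddx3y, which followed sex.

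The knockout mice gave a check of these differences in other animals of the same 2 lines. Their labels held for Nova1, at 0.0340 to 0.211 CPM in Nova1-/- cortex, and Nova2 was at 17.0 to 21.6 CPM in Nova2-/- against 31.2 to 50.2 CPM in wild-type cortex, so counts over Nova2 did not vanish. Between Nova2-/- and Nova1-/- cortex, 283 of 15728 genes (1.8%) passed both thresholds, a contrast that mixes litter set with the deleted gene. Of the 99 litter-dependent genes also tested there, 69 had the same sign and 20 passed both thresholds in the same direction. In the opposite direction, 10 had an adjusted p below 0.05 with any fold change. Of 25 genes higher in Nova2 litters, 17 were higher in every Nova2-/- than in every Nova1-/- mouse, a pattern that 20.6% of all genes showed. Of 74 genes higher in Nova1 litters, 19 were lower in every Nova2-/- mouse, the pattern of 19.5% of all genes, and 12 were higher in every one.

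The same step was seen in Nub1, at 142 to 152 CPM in Nova2-/- and 57.7 to 63.4 CPM in Nova1-/- cortex. G530011O06Rik, Akr1c19, Pla2g4b, Cwc22 and 9030025P20Rik also passed both thresholds in the same direction. Jmjd7 did not, since 1 Nova1-/- mouse was at 7.01 CPM, within the 6.27 to 10.1 CPM of Nova2-/- mice, and neither did Tmem181c-ps, at 6.05, 48.5 and 72.7 CPM in Nova2-/- and 66.5 to 73.4 CPM in Nova1-/- mice. The litter-dependent genes of the meningeal list and the collagens did not show that step, while the laminin gene Lamb2 was lower in every Nova2-/- mouse, with a log2 fold change of -0.33. Of the 8 litter-dependent meningeal or collagen genes, none was lower in every Nova2-/- mouse and 3 were higher in every one. Col3a1 was at 387, 342 and 484 CPM in Nova2-/- cortex, and the meningeal list summed to 1264 to 1403 CPM in Nova2-/- and 1018 to 1197 CPM in Nova1-/- mice. For 6 of those 8 genes the litter difference differed between genotypes (difference of differences in 1 edgeR fit of 12 cortices, added after seeing the data, 1.83% of 16210 genes). Over all litter-dependent genes tested in both, 27 differed in this way. These genes were picked from the same wild-type values that enter the contrast. The share over all genes is therefore not a like background for them. In the meningeal sum, with wild-type and knockout CPM scaled separately, the 3 Nova2-litter wild-type mice were the lowest of the 12 cortices.

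**Figure D4:**
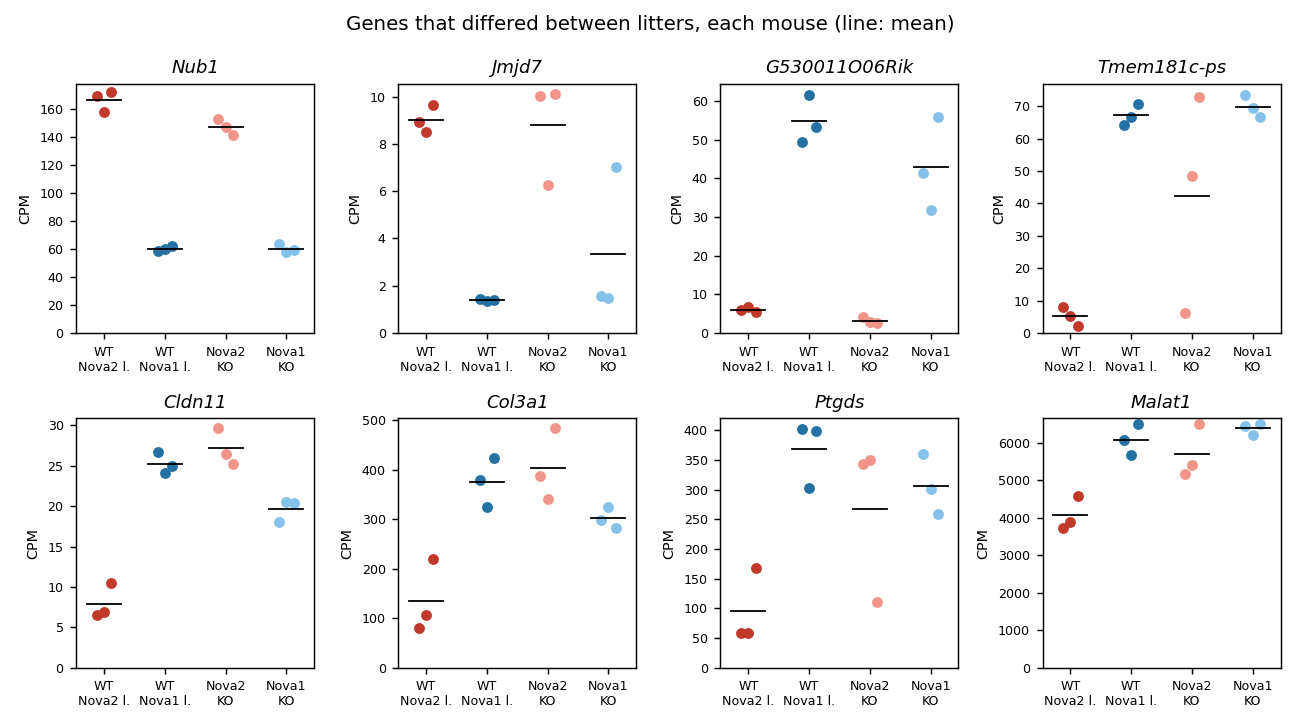
CPM of 8 genes in each of 12 cortices, by wild-type litter set and by knockout, with the group mean as a line, on axes that start at 0. Nub1 and G530011O06Rik differ between the lines in both genotypes, while Cldn11 and Col3a1 are low only in the 3 wild-type mice of Nova2 litters.

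How many genes were litter-dependent depended on single mice. Without wt3 the count rose to 459, and it was 41 without wt1 and 34 without wt2. Leaving out a Nova1-litter mouse gave 3 (wt4), 14 (wt5) or 8 (wt6), with 2 mice left in a set. Of the 103 genes, 68 passed both thresholds in only 1 of these 6 fits, among them Col3a1, Col1a2, Ptgds, Dcn and Cwc22. The sign held in each of those fits for all litter-dependent genes that were tested in it. The count of stable genes moved less, from 8736 to 10281.

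Within a litter set, a few genes varied far more than the rest. Among genes at 10 CPM or more, those with the widest spread in Nova2 litters were Xist and Tsix, then Rpl26, Gm15772 and Rpl34. Rpl26, a ribosomal protein gene, was at 4.13 and 3.93 CPM in wt1 and wt2 but at 186 CPM in wt3, and at 2.71 to 3.43 CPM in the Nova1-litter mice. In wt3 alone 9 genes were at least 5-fold above every other mouse, 6 of them ribosomal protein genes (Rpl26, Rps18, Rpl34, Rpl29, Rpl21 and Rpl3), a set chosen after the values were seen. No other mouse had a gene of that kind, and the ribosomal protein share of wt3 was 1.79%, inside the range of the others. These genes have near-identical copies elsewhere in the genome, so their counts are uncertain. In Nova1 litters the most variable were Cdhr1, Ttr, 1500004A13Rik, Nt5dc3 and Zfp937. Nt5dc3, a nucleotidase gene, was at 14.4, 17.5 and 49.9 CPM there.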

How the data were processed

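The authors extracted RNA with Trizol, removed ribosomal RNA with Ribo-Zero, made TruSeq libraries, sequenced paired 125-nt reads on an Illumina HiSeq and aligned with OLego. The paper names mm10 and the submitters' notes mm9, and the counting program and annotation are not given in the sources used here. The deposited values are estimated counts per gene, not all whole, and 25 symbols had turned into dates. They were rounded here. The 4 columns of the authors' comparisons, which were not used, hold fold changes and tests. Genotype and region came from the labels, which name no litters. The samples wt4, wt5 and wt6 were assigned to the Nova1 litters because mid- and hindbrain samples exist only for them and the Nova1 knockouts. The paper describes mid- and hindbrain RNA only for wild-type and Nova1-/- littermates. The samples wt1, wt2 and wt3 were then taken as the Nova2 litters.

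Litter sets were compared in edgeR 4.0.16 (R 4.3.3) with TMM scaling, filterByExpr and the quasi-likelihood test with Benjamini-Hochberg adjustment. Stability was tested as equivalence (2 one-sided tests, bound of 1.5-fold, adjusted p below 0.05). The fits were tested on simulated data. Exon lengths came from GENCODE vM1 (NCBIM37), which matched 93.9% of symbols and 97.8% of counts. Alternatives covered scaling, filters, DESeq2 1.42.0, rounding, depth, thresholds and each mouse left out. P-values measure the spread between these mice only.

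Named genes were the 15 highest per kilobase and 10 highest by CPM, the 10 largest non-overlapping changes each way, the 10 most abundant and 5 steadiest stable genes, the 5 most variable per set, the leading members of lists and families, Nova1, Nova2 and sex-linked genes. Some genes that the rule names are not reported here. Others were chosen after their values were seen. Members and lists were chosen with earlier results of these data known.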

Additional observations from a re-analysis of the deposited data

Results flagged for a closer look

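The litter difference of 17 named genes differed between genotypes (edgeR, difference of differences in 1 fit of the 12 cortices, added after seeing the data, adjusted p below 0.05). Some of these genes were named for their wild-type litter difference, which itself enters this contrast. The values below are the log2 difference in wild-type cortex minus that in knockout cortex. They were -2.11 for Cldn11, -1.88 for Col3a1, -1.84 for Col1a2, -1.53 for Dcn, -1.17 for Vtn, -1.14 for Kdr, -0.83 for Enpp2, -0.71 for Csf1r, -0.38 for Tnc and -3.92 for Cd209f, and 0.50 for Calm2. A further pair, -9.15 for Nova1 and 0.98 for Nova2, concern the deleted genes themselves. For the Y-linked genes they were 14.33 (Ddx3y), 15.72 (Eif2s3y), 13.39 (Kdm5d) and 14.25 (Uty). Those rest on which mice were male in each group. No formal test for an outlying sample was made in groups of 3 mice.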

How the results depend on the processing

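The 103 litter-dependent genes became 209 with all 12 cortices in 1 fit, 223 with the edgeR exact test, 483 with any fold change and 12 at an adjusted p below 0.01. They ranged from 3 to 459 when each mouse was left out in turn. Counts within 1.5 times came from no filter (150), DESeq2 (152), at least 10 counts in every sample (90), thinning to the smallest total (86), upper-quartile scaling (100), DESeq2 size factors (102) and unrounded values (103). The share of calls higher in Nova2 litters was 26.2%, and 37.3% in the fit of 12. Stable genes numbered 8736 to 10281 with each mouse left out, 13662 with a bound of 2-fold and 0 with a bound of 25%, where 5323 had an unadjusted p below 0.05 in the edgeR equivalence test. The share of the 100 most abundant genes was 19.6% per kilobase and 14.2% to 14.4% with each mouse left out, and that of the 15 families 20.3% per kilobase and 14.02% to 14.2% with each mouse left out. The wild-type sets share no replicate numbers, so they could not be paired. The knockouts do, and with the replicate block their contrast gave 254 genes instead of 283. The deviations of same-numbered knockouts correlated at 0.0294, 0.104 and -0.0947, and those of differently numbered ones at -0.124 to 0.0840. With 3 mice a group, these values cannot tell whether the numbers mark a shared source. Leaving out each knockout gave 215 to 343 genes. The cause of these changes was not tested. With 3 mice a set, none of the genes under 1 CPM could be called stable, and leaving out a mouse leaves 2 in that set.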
